A study of Mus musculus with 16 samples.

Results

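Brachyury (gene symbol T), Nodal and 8 further genes of the early mesendoderm were followed on microarrays of P19 cells, a mouse embryonal carcinoma line. The 10 genes are T, Mixl1, Eomes, Evx1, Gsc, Mesp1, Nodal, Lefty1, Lefty2 and Fgf8, out of 27442 genes named on the array, and they were found by the gene name of their probes. They were chosen by the response of T, which was known to be strongly lower with let-7a and higher with siSfpq. The values of T are therefore a description and carry no test, and the other genes were listed with earlier results of these data known. The array carries 13 probes for the 10 genes, and 9 genes had a probe that could be followed.

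P19 cells received a control transfection, a mimic of the miRNA let-7a (let-7a), an siRNA against Sfpq (siSfpq), or both together (let-7a+siSfpq), with 4 arrays of 1 colour per condition. Sfpq is a nuclear RNA-binding protein, and the comparisons address whether its knockdown alters what let-7a does to mRNA levels. All 4 conditions are of 1 cell line, which limits them as a model. Total RNA was labelled with Cy3, and each value below is a log2 intensity (a level) or a difference of log2 intensities (a change). In bulk RNA, fewer cells of a type and less RNA per cell cannot be told apart.

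Mesendoderm is the transient state from which mesoderm and definitive endoderm arise at the primitive streak of the gastrulating embryo. Nodal, a ligand of the TGF-beta superfamily, signals through activin receptors, an EGF-CFC co-receptor and Smad2 and Smad3, and Lefty1 and Lefty2 are secreted antagonists that the Nodal signal itself switches on. With Wnt and Fgf ligands, Nodal activates transcription factors of the streak, among them the T-box proteins T and Eomes, the homeobox proteins Mixl1, Gsc and Evx1 and the bHLH protein Mesp1. Embryonal carcinoma cells resemble the pluripotent epiblast and can enter mesodermal and neural fates, and let-7 miRNAs accumulate as cells leave pluripotency.

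The mature mouse let-7a is shown because it is the agent of the mimic, with its seed (bases 2 to 8) in capitals. The bases just before the start of T, Nodal and Gsc are shown because these genes were lower with let-7a and their promoters are in the RefSeq table used (build GRCm38.p6). Each run is 250 bases long and ends right before the start of the transcript. Capitals mark matches to the letters CTTTGA, the core bound by TCF/LEF factors of the Wnt pathway, ACACCT, a core of T-box sites, or CAGAC, a core of SMAD sites, on either strand, and no match overlapped another.
let-7a-5p (chr13:48538239-48538260, minus strand): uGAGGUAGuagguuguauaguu
T (chr17:8434173-8434422, plus strand): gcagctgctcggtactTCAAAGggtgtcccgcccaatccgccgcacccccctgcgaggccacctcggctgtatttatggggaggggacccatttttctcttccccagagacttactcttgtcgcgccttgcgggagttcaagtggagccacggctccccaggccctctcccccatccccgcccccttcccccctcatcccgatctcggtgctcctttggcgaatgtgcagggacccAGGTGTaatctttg
Nodal (chr10:61417722-61417971, plus strand): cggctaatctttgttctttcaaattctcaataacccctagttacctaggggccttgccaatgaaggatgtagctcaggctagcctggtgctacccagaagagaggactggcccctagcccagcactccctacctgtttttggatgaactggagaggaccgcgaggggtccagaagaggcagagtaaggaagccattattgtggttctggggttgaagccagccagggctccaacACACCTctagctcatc
Gsc (chr12:104473237-104473486, minus strand): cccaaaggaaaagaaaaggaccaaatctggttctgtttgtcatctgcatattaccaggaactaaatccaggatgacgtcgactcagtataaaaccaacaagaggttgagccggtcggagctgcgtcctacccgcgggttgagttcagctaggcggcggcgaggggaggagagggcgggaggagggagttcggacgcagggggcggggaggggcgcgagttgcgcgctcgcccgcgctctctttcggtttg

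The table held promoters of 6 of the 10 genes (T, Eomes, Evx1, Gsc, Mesp1 and Nodal). CTTTGA was found in 2 of them, T (229 to 234 bases before the start) and Mesp1, against 13.8% of 32851 promoters searched over the same length. ACACCT was found in 4, namely T (9 to 14 bases before the start), Nodal (11 to 16 bases before the start), Evx1 and Mesp1, against 11.8% of all promoters. CAGAC was found in Evx1 and Mesp1, against 42.2% of all promoters. None of these letters was found before the start of Gsc or Eomes, and a match is a string of letters, not a measured binding site.

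Between 33733 and 38464 of 59305 spots per array were well above background. On the same spots, arrays 1 and 2 of a condition differed with an SD of 0.11 to 0.13, no more than the 0.13 seen within an array between repeated spots of a probe, where arrays 1 and 4 differed by 0.16 to 0.20. Over all genes, arrays 1 and 2 differed with an SD of 0.17 to 0.29. Their mean therefore stands for 1 sample, each condition has 3 samples, and values are given in the order replicates 1 and 2, replicate 3, replicate 4. The replicates are described as transfected P19 cells, without word on whether the cultures were grown separately, so p-values measure only the spread between these samples, which may be technical, and the number of arrays limits the precision. Replicate 3 stood apart over all genes, with an SD of 0.46 in control to 0.67 in siSfpq against array 1, where replicate 4 had 0.28 to 0.38. The methods name 3 replicates and the labels give 4. Where leaving out replicate 3 changed a call of 1 of the 8 genes tested, its adjusted p without it is given, and for the lists only the counts are. Without replicates 1 and 2, only 3 of 18338 genes were called with let-7a, without replicate 4 only 2, and none in the other comparisons below, so that no call given below was kept in either case.

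The targeted gene checked the labels. The Sfpq level was 12.07, 11.98 and 11.99 in control, 11.90 to 12.04 in let-7a, 10.56, 11.47 and 10.61 in siSfpq, and 11.31, 11.50 and 11.40 in let-7a+siSfpq. All siSfpq samples lay below all control samples, with replicate 3 nearest to control. Sfpq fell by 1.13 with siSfpq (standard error 0.19, limma adjusted p = 0.00745). Its change in let-7a+siSfpq against let-7a was -0.57 (limma adjusted p = 0.145, and 9.03e-04 without replicate 3). The difference between these changes, the interaction, was 0.56 (limma adjusted p = 0.808, and 0.00174 without replicate 3), with 0.78, 0.01 and 0.88 in the replicates. Sfpq was thus higher in let-7a+siSfpq than in siSfpq, by 0.53 (limma adjusted p = 0.100). It was 0.0384 with the replicate number as a block and 1.32e-04 without replicate 3, though the groups overlapped. Comparisons of let-7a+siSfpq with siSfpq therefore also differ in the depth of the knockdown. Of 8 markers of embryonal carcinoma cells, 7 were measured, including Pou5f1, Sox2 and Nanog, well above background on all 16 arrays, and Fut4 was not well above background on any.

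T, the T-box factor that defines the nascent mesoderm, had levels of 10.28, 9.83 and 10.36 in control and of 7.75, 8.02 and 7.83 in let-7a. With siSfpq its levels were 12.30, 11.35 and 12.56, and in let-7a+siSfpq they were 9.96, 8.82 and 10.25. The order of the means was siSfpq (12.07 ± 0.63, SD, n = 3), control (10.16 ± 0.28), let-7a+siSfpq (9.68 ± 0.75) and let-7a (7.87 ± 0.14). Control and let-7a+siSfpq overlapped, and all other neighbours in this order were separate.

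The change of T was -2.29 with let-7a, a 4.89-fold lower intensity, and 1.91 with siSfpq, a 3.76-fold higher one (standard error 0.36 each). It was -2.52, -1.82 and -2.53 in the replicates with let-7a, and 2.02, 1.52 and 2.20 with siSfpq. When siSfpq was added to let-7a, T was higher by 1.81 (2.31 without replicate 3). When let-7a was added to siSfpq, T was lower by 2.39, close to the 2.29 without siSfpq, and the interaction, the let-7a change with siSfpq minus that without it, was -0.10 with a standard error of 0.51 (0.20 without replicate 3). The single T probe lies at chr17:8635302-8635361 (mm9).

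Among genes well above background on all control and let-7a arrays, T had the largest drop but 1. The transcript LOC102642338 had a change of -2.38 that was not called (limma adjusted p = 0.318). Next after T came Jaml, a junctional adhesion molecule, which fell by 1.79 (limma adjusted p = 0.00633), and Cpb1, a carboxypeptidase, with -1.73 (limma adjusted p = 0.233). With siSfpq, T ranked 47 among 16488 genes ordered by their rise.

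**Figure D1:**
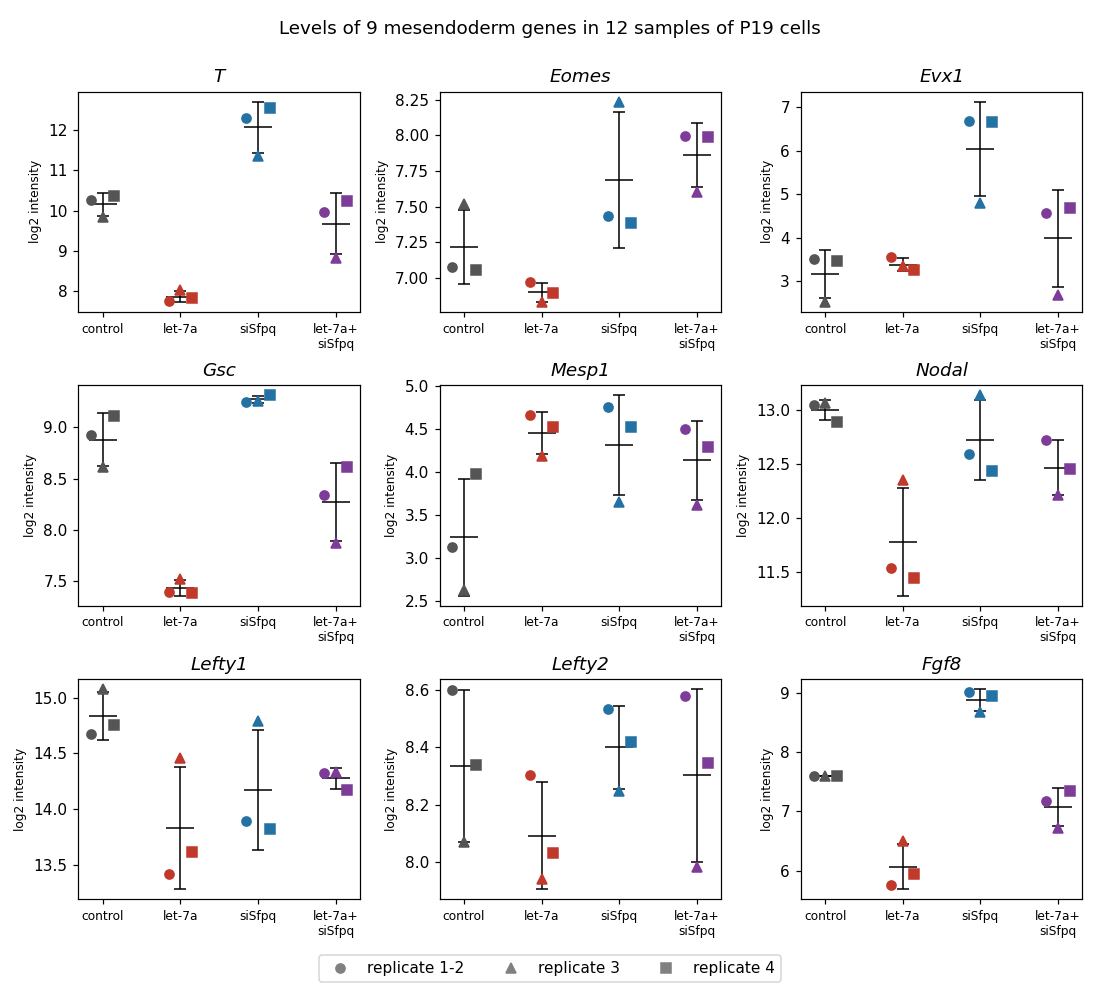
Log2 intensity (y axis) of 9 genes in the 4 conditions (x axis), 1 point per sample with the marker giving the replicate, and the mean with its SD (n = 3) in black. T, Gsc and Fgf8 are lowest in let-7a and highest in siSfpq, and Nodal and Lefty1 are lowest in let-7a but not highest in siSfpq.

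With let-7a against control, 3 of the 8 genes other than T that were tested fell, namely Gsc, Fgf8 and Nodal, and none rose. Of all 18338 genes tested, 2.01% fell and 4.89% rose. The choice of genes used this contrast, so nothing is read from the count. With the replicate number as a block, which the samples bear out, 4 of the 8 fell, now with Lefty1, and Mesp1 was called higher, against 10.2% of all genes lower and 11.6% higher. Mesp1 was tested only because it was high with let-7a, and its control was not well above background on any array, so its calls support nothing.

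Gsc, a homeobox repressor of the anterior streak, had levels of 8.92, 8.61 and 9.11 in control and of 7.40, 7.52 and 7.39 in let-7a. The groups did not overlap, and Gsc fell by 1.44 (standard error 0.18, limma adjusted p = 0.00119, and 8.74e-05 without replicate 3). Its probe lies at chr12:105709426-105709485 (mm9).

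Fgf8, a ligand that streak cells need to migrate away, had levels of 7.60, 7.59 and 7.59 in control and of 5.76, 6.50 and 5.94 in let-7a. It fell by 1.53 (standard error 0.21, limma adjusted p = 0.00192), or 2.89-fold, in 3 of 3 replicates. Its value is the mean of 2 probes, at chr19:45811355-45811414 and chr19:45811668-45811727 (mm9), whose changes were -1.35 and -1.71. The third Fgf8 probe, at chr19:45816855-45816914, was well above background on 1 control and 1 let-7a+siSfpq array and was left out.

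Nodal, the ligand of the pathway, had levels of 13.05, 13.07 and 12.89 in control and of 11.54, 12.35 and 11.44 in let-7a. All let-7a samples were below all control samples, and replicate 3 moved by -0.71 where the others moved by -1.51 and -1.45. Nodal fell by 1.22 (standard error 0.24, limma adjusted p = 0.0114), and by 1.48 without replicate 3 (limma adjusted p = 9.58e-05). Its probe lies at chr10:60887790-60887849 (mm9).

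Lefty1, the feedback inhibitor of Nodal, had levels of 14.68, 15.08 and 14.76 in control and of 13.42, 14.46 and 13.61 in let-7a. The groups were separate, but the change of -1.01 (standard error 0.28) missed the threshold (limma adjusted p = 0.0543). It passed with the replicate block (limma adjusted p = 0.00308) and without replicate 3, where it was -1.20 (limma adjusted p = 9.58e-05). Lefty2, its neighbour on chromosome 1, had levels of 8.60, 8.07 and 8.34 in control and of 8.30, 7.94 and 8.03 in let-7a, which overlapped. The Lefty2 change was -0.24 (standard error 0.19, limma adjusted p = 0.534). The Lefty genes are near-identical paralogs, and RNA of one could bind the probe of the other.

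The remaining genes tested with let-7a were not called. Eomes, a T-box factor of the streak and definitive endoderm, changed by -0.32 (standard error 0.23, limma adjusted p = 0.505), and Evx1, a homeobox factor of the posterior streak, by 0.22 (standard error 0.60, limma adjusted p = 0.904). Mesp1 is described with the dim probes below. Without replicates 1 and 2, or without replicate 4, the limma adjusted p of Gsc, Fgf8 and Nodal lay between 0.130 and 0.356, and none of them was called.

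Markers of other cell types moved with the same comparison. Of 15 neuronal genes measured, 11 rose with let-7a and none fell, among them Tubb3 by 1.40 (limma adjusted p = 0.00255). The log2 of the mean intensity of the 15 genes was 12.13 to 12.61 in let-7a and 11.61 to 11.87 in control. Of the 7 embryonal carcinoma markers measured, Lin28a fell by 0.77, Utf1 by 0.70 and Nanog by 0.58 (limma adjusted p = 0.00245, 0.0383 and 0.00762), and the change of Pou5f1 was -0.15. The other 4 were not called, and the changes of the 7 ran from -0.77 to 0.56. The highest was that of Dppa4, from a mean of 4.69 in control to 5.25 in let-7a. The paper describes Lin28a as a known let-7a target. Of 8 endoderm markers, 4 were measured, and 1 of them, Hnf4a, was called higher with let-7a (limma adjusted p = 0.00762). Its probe was well above background on the 4 let-7a arrays and on no other, so it was tested only because it was high there, and its call supports nothing. It was at least 1.78-fold higher than in control. With the replicate block 2 were higher. The median change of the 4 was 0.45, and the log2 of their mean intensity was from 6.40 to 6.77 in let-7a and from 6.38 to 6.60 in control, while Ttr and Apoa1 were not well above background on any array. The part of these cell states in the changes of Gsc, Fgf8 and Nodal was not tested.

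With siSfpq against control, 2 of the 8 genes were called higher (Fgf8 and Evx1) and none lower, where 6.33% of all genes rose and 7.32% fell. With the replicate block, Mesp1 was also called higher and Lefty1 fell, which made 3 higher and 1 lower, against 18.4% and 19.3% of all genes. The calls of Evx1 and Mesp1 rest on a control at or near background and support nothing. This contrast was used in choosing the genes too, and nothing is read from the counts.

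Fgf8 had levels of 9.02, 8.67 and 8.95 in siSfpq, all above the 7.59 to 7.60 of control. It rose by 1.28 (standard error 0.21, limma adjusted p = 0.00673), and its 2 probes gave 1.27 and 1.29. Evx1 had levels of 6.68, 4.79 and 6.67 in siSfpq against 3.52, 2.52 and 3.46 in control. The fitted difference was 2.88 (standard error 0.60, limma adjusted p = 0.0140), against a control near background. The Evx1 probe was well above background on 4 of 4 siSfpq arrays but on 1 of 4 control, 1 of 4 let-7a and 3 of 4 let-7a+siSfpq arrays, so that it was tested only because it was high with siSfpq, and its call supports nothing.

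Nodal and its inhibitor Lefty1 were not higher with siSfpq. Nodal had levels of 12.60, 13.14 and 12.44, which overlapped control, and a change of -0.28 (standard error 0.24, limma adjusted p = 0.481). Without replicate 3 it was -0.45 (limma adjusted p = 0.00920). Lefty1 had levels of 13.89, 14.79 and 13.82 and a change of -0.67 (standard error 0.28, limma adjusted p = 0.131), which passed with the replicate block (limma adjusted p = 0.0141) and without replicate 3, where it was -0.86 (limma adjusted p = 1.66e-04).

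Gsc had levels of 9.24, 9.26 and 9.31, all above control, but its change of 0.39 was not called (standard error 0.18, limma adjusted p = 0.177). Eomes had a change of 0.47 (limma adjusted p = 0.191), or 0.34 without replicate 3 (limma adjusted p = 0.0172), and Lefty2 one of 0.06 (limma adjusted p = 0.858). Without replicates 1 and 2, or without replicate 4, the limma adjusted p of Fgf8 and Evx1 with siSfpq lay between 0.409 and 0.465. With only control and siSfpq in the fit, no gene of the array was called with siSfpq, and the limma adjusted p was 0.0530 for Fgf8 and 0.0598 for Evx1.

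The neuronal genes moved the other way with siSfpq. Of 15, 9 fell and none rose, among them Tubb3 by 1.44 (limma adjusted p = 0.00555), and the log2 of their mean intensity was 10.84 to 11.24. Of the embryonal carcinoma markers, Dppa4 rose by 1.84 and Utf1 by 0.78, and Sox2 fell by 0.72 (limma adjusted p = 0.0398, 0.0199 and 0.0276). None of the 4 endoderm markers was called. With the replicate block 1 of the 4 was called lower, as were 10 of the 15 neuronal genes. The part of these states in the rise of Fgf8 was not tested.

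**Figure D2:**
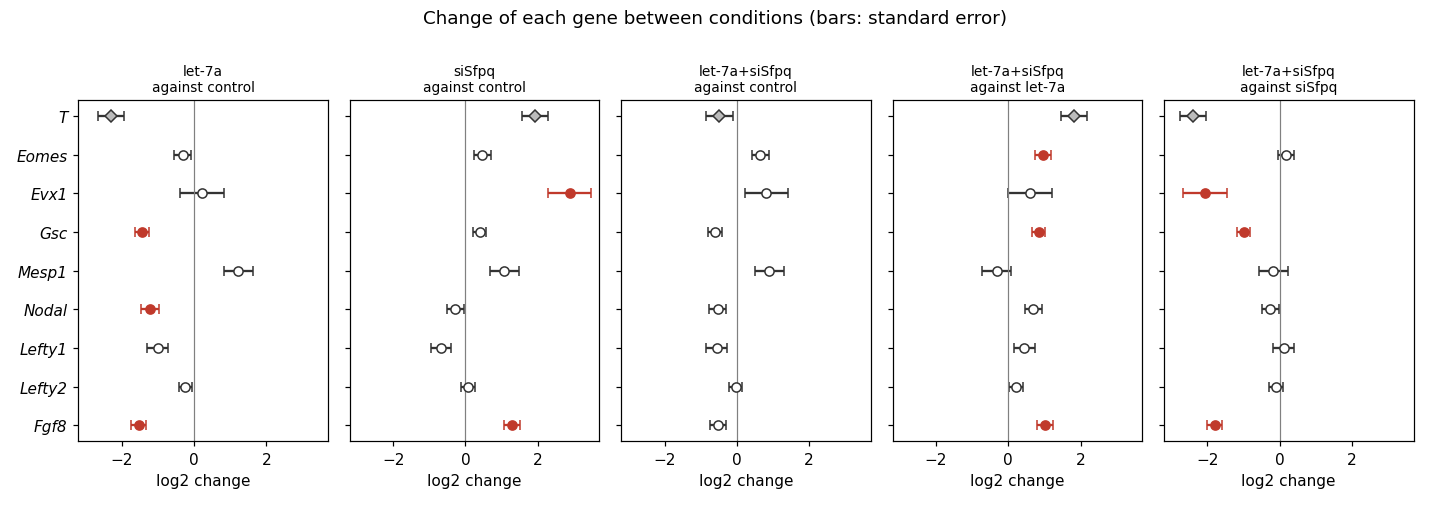
Log2 change (x axis) of each gene (y axis) in 5 comparisons, with the standard error as a bar (3 samples per condition). Red filled points passed an adjusted p under 0.05, open points did not, and T is a grey diamond because it has no test. Gsc and Fgf8 are red in the let-7a panel and again in both panels where let-7a+siSfpq is set against a single treatment.

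The combined treatment was set against each single one. Adding siSfpq to let-7a raised 3 of the 8 genes (Fgf8, Eomes and Gsc) and lowered none, where 0.96% of all genes rose and 2.16% fell. With the replicate block the counts were the same, against 6.01% and 7.16% of all genes. The let-7a samples also enter the choice of the genes, and nothing is read from the counts.

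Fgf8 had levels of 7.18, 6.72 and 7.34 in let-7a+siSfpq, above all let-7a samples. It rose by 1.01 against let-7a (standard error 0.21, limma adjusted p = 0.0285), with changes of 1.42, 0.22 and 1.40 in the replicates. Gsc had levels of 8.34, 7.87 and 8.61 and rose by 0.84 (standard error 0.18, limma adjusted p = 0.0348), with 0.94, 0.34 and 1.22 in the replicates. In both genes replicate 3 gave the smallest rise.

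Eomes had levels of 7.07, 7.52 and 7.05 in control, 6.97, 6.83 and 6.89 in let-7a, 7.43, 8.24 and 7.38 in siSfpq, and 7.99, 7.60 and 7.99 in let-7a+siSfpq. It rose by 0.96 against let-7a (standard error 0.23, limma adjusted p = 0.0465), in 3 of 3 replicates, and both of its probes gave 0.96. Unlike T, Gsc and Fgf8, it had its highest mean in the combined treatment, where its change against siSfpq was 0.18 (limma adjusted p = 0.670). Without replicate 3, that change was 0.58 (limma adjusted p = 0.00171).

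Nodal had levels of 12.73, 12.21 and 12.46 in let-7a+siSfpq, which overlapped let-7a through replicate 3. Its change against let-7a was 0.69 (standard error 0.24, limma adjusted p = 0.163), with 1.19, -0.14 and 1.01 in the replicates, and 1.10 without replicate 3 (limma adjusted p = 4.00e-04). Lefty1 had levels of 14.32, 14.33 and 14.17 and a change of 0.45 (standard error 0.28, limma adjusted p = 0.498), or 0.73 without replicate 3 (limma adjusted p = 9.63e-04). Evx1 had a change of 0.60 (limma adjusted p = 0.732), or 1.22 without replicate 3 (limma adjusted p = 0.00451). Its probe was well above background on 1 of 4 let-7a arrays, and this call supports nothing. Without replicates 1 and 2, or without replicate 4, the limma adjusted p of Fgf8, Gsc and Eomes against let-7a lay between 0.734 and 0.890. With only these conditions in the fit it was 0.0871 for Fgf8 and 0.0774 for Gsc. Under scaling to the 75th percentile it was 0.0624 for Eomes and 0.0622 for Gsc, with the same direction. In this comparison 10 of the 15 neuronal genes fell and none rose (12 and none with the replicate block), with a median change of -1.18. Of the embryonal carcinoma markers, Utf1 alone was called, and rose by 0.88 (limma adjusted p = 0.0252). The lowest change among them was -0.52, that of Sox2. With the replicate block 1 of them was called higher and 1 lower. No endoderm marker was called, and 1 was called lower with the replicate block. The part of these markers in the rises of Fgf8, Gsc and Eomes was not tested.

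With let-7a added to siSfpq, 3 of the 8 genes were called lower (Fgf8, Gsc and Evx1) and none higher, where 4.12% of all genes fell and 6.17% rose. With the replicate block the counts were again 3 and 0, against 15.7% and 17.6% of all genes. The siSfpq samples also enter the choice of the genes, and nothing is read from the counts. Fgf8 fell by 1.80 (standard error 0.21, limma adjusted p = 0.00150), in 3 of 3 replicates with changes of -1.84, -1.95 and -1.61. Gsc fell by 0.997 (standard error 0.18, limma adjusted p = 0.0111). Mean Sfpq was higher in let-7a+siSfpq than in siSfpq, so let-7a and the weaker knockdown cannot be told apart in these falls. Evx1 had levels of 4.58, 2.69 and 4.69 in let-7a+siSfpq, of which that of replicate 3 was not well above background. The fitted difference was -2.06 (standard error 0.60, limma adjusted p = 0.0494), and since Evx1 was tested only because it was high with siSfpq, its call supports nothing here either.

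In this comparison Nodal and Lefty1 had small changes of -0.26 and 0.11 (limma adjusted p = 0.531 and 0.849). Without replicate 3, Lefty1 had 0.39 (limma adjusted p = 0.00777). For Nodal this value came from replicate 3, at -0.92 against 0.13 and 0.02 in the others, and without that replicate it was 0.08 (limma adjusted p = 0.594). Without replicates 1 and 2, or without replicate 4, the limma adjusted p of Fgf8, Gsc and Evx1 against siSfpq lay between 0.208 and 0.614. With only these conditions in the fit it was 0.0227 for Fgf8, 0.0727 for Gsc and 0.169 for Evx1. Under scaling to the 75th percentile it was 0.0753 for Evx1. In this comparison 7 of the 15 neuronal genes rose and none fell (11 and none with the replicate block), with a median change of 1.02. Of the embryonal carcinoma markers, Lin28a fell by 0.64 and Nanog by 0.65 (limma adjusted p = 0.00937 and 0.00608), and 3 fell with the replicate block. Of the 4 endoderm markers Hnf4a alone was called, with a probe that was not well above background on any array of these conditions, so that the call supports nothing. With the replicate block 3 of the 4 were called higher. They were Hnf4a, and Foxa1 and Dab2, which were well above background on all 16 arrays. The part of these markers in the changes of Fgf8 and Gsc was not tested.

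With let-7a+siSfpq against control, limma called none of the 8 genes, where 1.52% of all genes were called in either direction, and 5 of the 8 had an unadjusted p under 0.05, as did 11.8% of all genes. With the replicate block, Gsc was called (change -0.61, limma adjusted p = 0.0348), against 8.14% of all genes. The other changes were -0.52 for Fgf8, -0.54 for Nodal, -0.56 for Lefty1 and 0.65 for Eomes (limma adjusted p = 0.350, 0.414, 0.489 and 0.255), -0.03 for Lefty2 (limma adjusted p = 0.984), and, from a control at or near background, 0.90 for Mesp1 and 0.82 for Evx1 (limma adjusted p = 0.414 and 0.725). Without replicate 3, 5 of the 8 genes passed, as did 18.2% of all genes. The changes were then -0.54 for Gsc, -0.38 for Nodal and -0.47 for Lefty1 (limma adjusted p = 0.0166, 0.0472 and 0.00984), and 0.93 for Eomes and 1.14 for Evx1 (limma adjusted p = 8.62e-04 and 0.00925). Evx1 was tested only because it was high with siSfpq, and its control was well above background on 1 of 4 arrays, so its call supports nothing. The control samples also enter the choice of the genes, so nothing is read from the counts here.

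The interaction asks whether the let-7a change differed between cells with and without siSfpq. Mean Sfpq was 10.88 in siSfpq and 11.40 in let-7a+siSfpq, and the interaction also holds this difference in knockdown. The single treatments enter both this contrast and the choice of the genes, so nothing is read from the counts. Limma called none of the 8 genes and 0% of all genes, and 4 of the 8 (Nodal, Lefty1, Evx1 and Mesp1) had an unadjusted p under 0.05, as did 6.32% of all genes. Nodal had an interaction of 0.97 (standard error 0.34, limma adjusted p = 0.756), with 1.64, -0.21 and 1.47 in the replicates. Lefty1 had 1.11 (standard error 0.40, limma adjusted p = 0.756), with 1.69, 0.16 and 1.49. Replicate 3 thus showed little of what the others showed, and without it the interaction was 1.55 for Nodal and 1.59 for Lefty1 (limma adjusted p = 8.14e-04 and 4.24e-04). For Gsc and Fgf8 the interaction was 0.45 and -0.27 (limma adjusted p = 0.834 and 0.935). Without replicate 3, Gsc (0.82, limma adjusted p = 0.0108), Eomes (0.72, limma adjusted p = 0.00838) and Evx1 (-1.96, limma adjusted p = 0.00380) passed too, which made 5 of the 8, against 22.3% of all genes. The call of Evx1, whose control and let-7a levels were near background, supports nothing here. The comparisons share samples, so their values are given side by side and were not correlated.

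**Figure D3:**
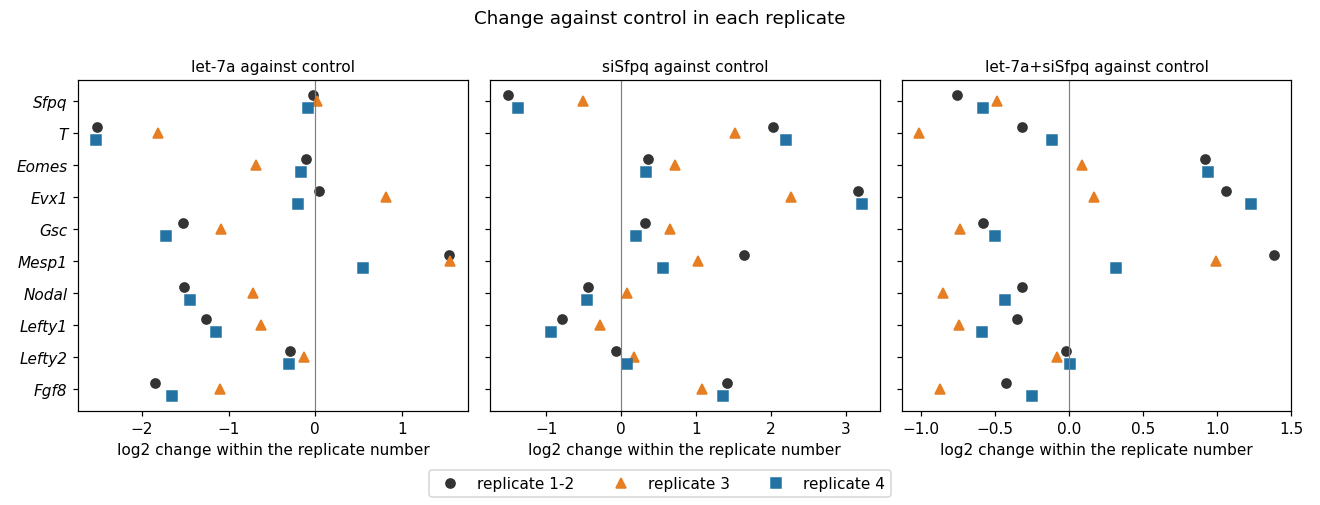
Log2 change against control (x axis) of Sfpq and 9 genes (y axis) within each replicate number, for let-7a, siSfpq and let-7a+siSfpq. Replicate 3 (orange triangles) has the smallest drop of Sfpq with siSfpq, -0.51 against -1.51 and -1.37, and the smallest drop of T with let-7a.

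Mesp1, an early regulator of cardiac mesoderm, and Mixl1, a homeobox target of Nodal signalling, had dim probes. The Mesp1 probe was well above background on 0 of 4 control, 4 of 4 let-7a, 3 of 4 siSfpq and 3 of 4 let-7a+siSfpq arrays. It was tested only because it was high with let-7a, where its levels were 4.67, 4.18 and 4.52 against 3.12, 2.62 and 3.97 in control. With the dimmest probe well above background on each array as the floor for control, Mesp1 was at least 1.60-fold higher with let-7a (limma adjusted p = 0.101, 0.0111 with the replicate block and 0.0408 without replicate 3). With siSfpq its mean was 1.45-fold above that floor (limma adjusted p = 0.0952, 0.0134 with the replicate block and 0.0223 without replicate 3). This is no lower bound, since replicate 3 of siSfpq, at 3.65, was not well above background, and siSfpq and control overlapped. Because of how Mesp1 came to be tested, none of these calls supports a change. The Mixl1 probe was well above background on 1 of 16 arrays, a let-7a array with a level of 5.16 where the array averaged with it read 1.60, and it was not tested.

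The wider Nodal pathway was described with a list of 24 further genes, ligands, convertases, co-receptors, receptors, Smads, cofactors and inhibitors, of which 23 were tested and Acvr1c was not well above background on any array. With let-7a, 1 of the 23 fell and none rose (4 and none with the replicate block), where 2.01% of all genes fell and 4.89% rose (10.2% and 11.6% with the block). Tgif1, a Smad corepressor, fell by 0.30 (limma adjusted p = 0.0328). The median change of the 23 was -0.21, beside -0.04 over all genes. This list too was chosen with earlier results of these data known, and nothing is read from its counts or medians.

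With siSfpq, 3 of the 23 were called higher and 1 lower (4 and 6 with the replicate block), where 6.33% of all genes were higher and 7.32% lower (18.4% and 19.3% with the block). Cfc1, the EGF-CFC co-receptor also called Cryptic, was well above background on all siSfpq and let-7a+siSfpq arrays and on no other, so it was tested only because it was high there, and its calls support nothing. Its levels were 6.60, 4.58 and 6.26 in siSfpq and 6.27, 4.85 and 6.11 in let-7a+siSfpq. It was at least 4.13-fold higher with siSfpq than in control (limma adjusted p = 0.00560), and adding siSfpq to let-7a gave a level at least 4.43-fold higher (limma adjusted p = 0.0288). Gdf1, a ligand partner of Nodal, rose by 0.84 (limma adjusted p = 0.0443), though its groups overlapped, and Pcsk6, a convertase that processes Nodal, rose by 0.70 (limma adjusted p = 0.0198). Pmepa1, an inhibitor of Smad signalling, fell by 1.15 (limma adjusted p = 0.0356). The median change of the 23 was 0.03, beside 0.01 over all genes. In let-7a+siSfpq against let-7a, Cfc1 was the 1 gene called (5 higher with the replicate block), where 0.96% of all genes were higher and 2.16% lower (6.01% and 7.16% with the block). Against siSfpq none was called (3 higher and 3 lower with the replicate block), where 6.17% of all genes were higher and 4.12% lower (17.6% and 15.7% with the block).

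A list of 32 further genes of the streak and its mesoderm held 23 that were tested. Mesp2, Msgn1, Sox17, Wnt3a, Fgf17, Hoxb1, Noto and Shh were not well above background on any array, and Hand1 was so on too few. With siSfpq, 7 of the 23 were called higher and 1 lower (12 and 2 with the replicate block), beside the 6.33% and 7.32% of all genes (18.4% and 19.3% with the block), with a median change of 0.50 beside 0.01 over all genes. The largest fitted changes among the genes called were those of Cdx2, Sp5, Wnt3, Cdx1, Snai1 and Cyp26a1. The place of Cdx2 in this order rests on a control below background and supports nothing. Wnt3, the ligand that starts the streak, rose by 1.97 from levels of 7.12 to 7.36 in control (limma adjusted p = 0.00769). Sp5, a direct Wnt target, rose by 2.11 (limma adjusted p = 0.0105), and the caudal homeobox gene Cdx1 by 1.53 (limma adjusted p = 0.00535). Its relative Cdx2 was not well above background on any control array and was at least 3.81-fold higher with siSfpq (limma adjusted p = 0.0302), but it was tested only because it was high there, and its call supports nothing. Snai1, a repressor of epithelial genes, rose by 1.16 (limma adjusted p = 0.0105), and Cyp26a1, which degrades retinoic acid, by 1.14 (limma adjusted p = 0.0193).

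With let-7a, 1 of the 23 rose and 2 fell (4 and 4 with the replicate block), beside the 4.89% and 2.01% of all genes (11.6% and 10.2% with the block), with a median change of -0.15. Lhx1, a LIM homeobox gene of the anterior streak, rose by 1.54 (limma adjusted p = 0.00633). Rspo3, an enhancer of Wnt signalling, fell by 0.99 (limma adjusted p = 0.00694), and Snai1 fell by 0.95 (limma adjusted p = 0.0241). Rspo3 also fell with siSfpq, by 0.61 (limma adjusted p = 0.0434). When siSfpq was added to let-7a, 5 of the 23 rose and none fell (6 and none with the replicate block), beside 0.96% and 2.16% of all genes (6.01% and 7.16% with the block). They were Sp5 (1.996), Wnt3 (1.79), Cdx1 (1.44) and the Fgf ligands Fgf4 (1.29) and Fgf5 (0.93), with limma adjusted p from 0.00947 for Cdx1 to 0.0313 for Fgf5. Against siSfpq, 2 were called higher and 3 lower (4 and 8 with the replicate block), beside 6.17% and 4.12% of all genes (17.6% and 15.7% with the block). Pdgfra, a receptor of platelet-derived growth factor, rose by 2.19 and Lhx1 by 1.64 (limma adjusted p = 0.00781 and 0.00640), while Snai1 fell by 1.31 and Cyp26a1 by 1.18 (limma adjusted p = 0.00685 and 0.0208). The third gene called lower was Cdx2, tested only because it was high with siSfpq, and its call supports nothing. The genes of these last comparisons were chosen for naming after their values were seen.

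Counted after the data were seen, no gene of either list was called without replicates 1 and 2 or without replicate 4, with let-7a or with siSfpq, and with only control and siSfpq in the fit no list gene was called with siSfpq. Without replicate 3, 8 Nodal pathway and 14 streak genes were called with let-7a, where 30% of all genes were, and 11 and 17 with siSfpq, where 49.2% were.

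**Figure D4:**
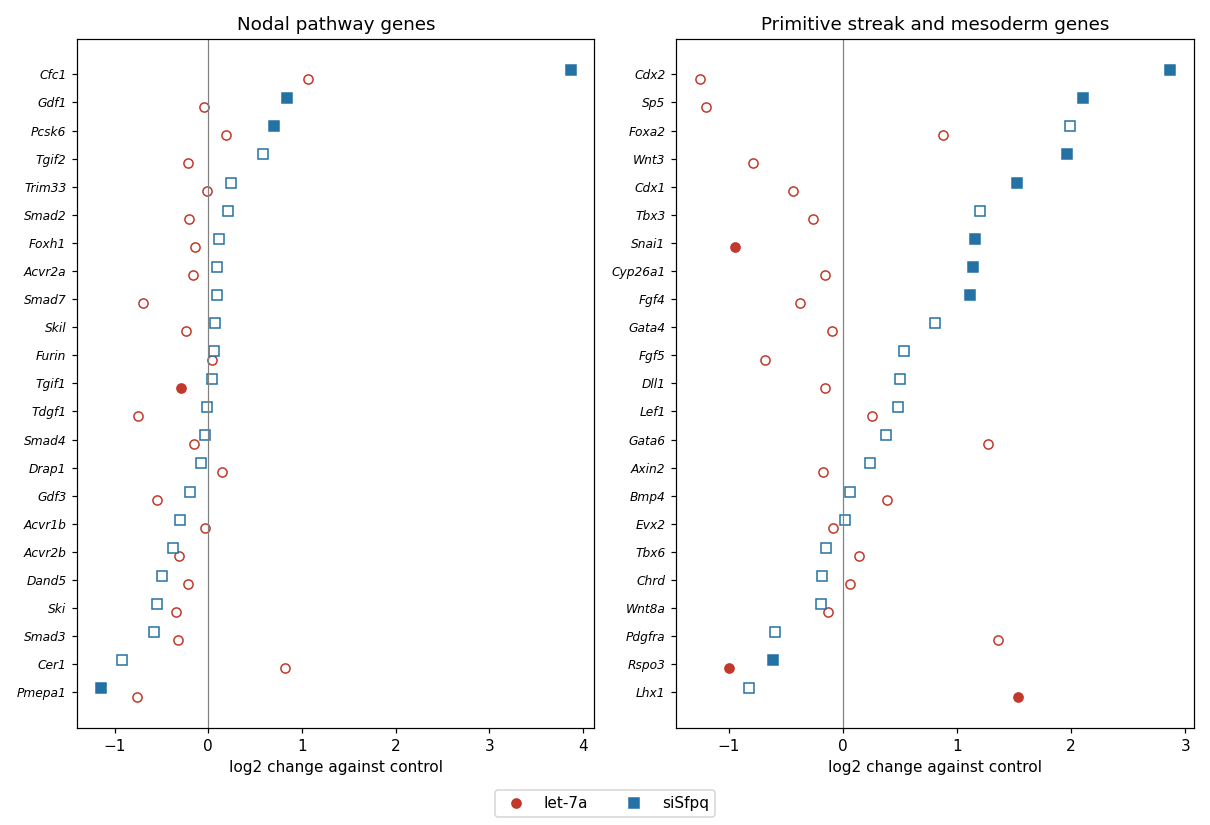
Log2 change against control (x axis) of 23 Nodal pathway genes and 23 primitive streak and mesoderm genes (y axis, ordered by the siSfpq change), with let-7a as red circles and siSfpq as blue squares. Filled symbols passed an adjusted p under 0.05. With siSfpq, Cfc1 is plotted apart from the other pathway genes, and 7 streak genes, Cdx2 among them, are filled to the right. Cfc1 and Cdx2 were not well above background on any control array. Their plotted distances are therefore not measured changes, and their calls support nothing.

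The genes whose levels were most like those of T were ranked by Pearson correlation over the 12 samples, among 16436 genes well above background on all 16 arrays. These samples share conditions and replicate numbers, so the correlation describes the pattern only. The top 5 were Col27a1, a fibrillar collagen (0.99), Mybbp1a, a nucleolar protein (0.98), Impa2, an inositol monophosphatase (0.98), Fgf8 (0.98) and Ppan, a ribosome biogenesis factor (0.98). Their scale differed from that of T, since Col27a1 changed by -1.20 with let-7a and Mybbp1a by -0.44. Of the listed mesendoderm genes, Gsc had a correlation of 0.95 with T (rank 89), Nodal 0.62, Lefty2 0.62, Eomes 0.48 and Lefty1 0.19.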

How the data were processed

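The authors deposited the scanner intensity of each spot of 16 Agilent arrays of 1 colour, extracted with Feature Extraction. Per the file headers, the processed intensity is background-subtracted and detrended, low values are replaced by surrogates, and arrays are not normalized to each other. The authors also deposited log2 values, quantile normalized with limma per the methods, which were used as an alternative. Here, the processed intensities were put on a log2 scale, without outlier spots, and given equal quantiles across arrays with limma 3.58.1 in R 4.3.3. A probe entered where some condition had it well above background on each of its 4 arrays, those named only by a region or a probe ID were dropped, and the mean over a gene's probes was used, for 18338 genes in all. Software also included Python 3.11.15, matplotlib 3.10.9 and the R package data.table, version 1.17.8. Means of 4 conditions over 12 samples were fitted in 1 limma model with an intensity trend, and a call required an adjusted p under 0.05 (Benjamini-Hochberg, over all genes). This averaging of arrays 1 and 2 was known from earlier work on these data.

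The members and lists were chosen with earlier results of these data known. Named are all members, list genes called with let-7a or siSfpq against control (at most 6 per list and comparison), the 5 genes most like T, the next 2 falls with let-7a, Sfpq, and marker genes where their list is described. A gene of the Nodal pathway list is not reported here and enters no count. LOC102642338 was named after its value was seen. Deviations of samples with the same replicate number from their condition means correlated with r of 0.28 to 0.71 in every pair, so the numbers pair the samples, and the replicate was used as a block in an alternative.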

Additional observations from a re-analysis of the deposited data

How the results depend on the processing

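Counts here are of the 8 mesendoderm genes tested, T left out, and the values as reported are 3 with let-7a against control, 2 with siSfpq against control, 0 with let-7a+siSfpq against control, 3 against let-7a, 3 against siSfpq and 0 for the interaction. With the replicate block they were 5, 4, 1, 3, 3 and 0, and the block changed no call of these genes other than those of Lefty1 and Mesp1 with let-7a and with siSfpq and of Gsc with both. Leaving out each replicate gave 0 to 5, 0 to 6, 0 to 5, 0 to 6, 0 to 5 and 0 to 5, with the highest counts without replicate 3 and 0 otherwise. With arrays 1 and 2 counted separately, 5, 5 and 2 genes were called against control with let-7a, siSfpq and let-7a+siSfpq. With only the groups compared in the fit, 0 were called with siSfpq, 1 against let-7a and 1 against siSfpq. Without a filter on dim probes, which adds the third Fgf8 probe and 9062 genes, these counts were 1, 0 and 1. The filter on all 16 arrays, which drops Evx1, left 1 with siSfpq. Scaling to the 75th percentile and a log2 change of at least 1 each left 1 against let-7a. The other settings, including normexp, the slide as a block, the authors' values, no trend and the brightest probe, gave counts within 1.5 times those reported. Of single values, 10 changed sign, none of them called as reported. Against siSfpq, leaving out a replicate gave -0.0376 to 0.58 for Eomes, -0.0576 to 0.39 for Lefty1 and -0.45 to 0.0754 for Nodal, and scaling to the 75th percentile gave -0.0777 for Lefty1. With let-7a, Evx1 was -0.0071 in the authors' values and -0.0809 to 0.43 when a replicate was left out. The Fgf8 interaction was 0.56 with no filter and -0.42 to 0.0231 when a replicate was left out. Beyond the constructions named, the cause was not tested. Signal near background limits Evx1, Mesp1, Mixl1, Cfc1, Cdx2, Hnf4a, Foxa2, Gata4, Neurod1 and Neurog1.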
